A study of Saccharomyces cerevisiae with 12 samples.

Results

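The footprint and RNA libraries of yeast cultures that never met radicicol were set against each other, gene by gene, to describe which messages carried many ribosomes for their abundance and which carried few. The 6 untreated libraries of the 12 in the series were used, 3 of ribosome-protected fragments (footprints) and 3 of RNA, joined by replicate number. Genes were the 5988 protein-coding identifiers of the 7130 in the authors' table of counts, and 5239 of them held enough reads to be tested.

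The organism was the budding yeast Saccharomyces cerevisiae, and the labels used here give no strain or genotype. By the protocol, 3 colonies were grown overnight in liquid culture and passed through another night with or without 10 µM radicicol, which blocks the chaperone Hsp90. The untreated arm had no drug. Each culture was brought down to an OD600 of 0.001 in 100 ml and regrown for 24 h, so both arms were collected after a long regrowth. The density at harvest is not given in the sources used here. RNA was poly(A)-selected and cut into fragments of 27 to 33 nt, the size of footprints, and for footprints the lysate was digested with RNase I and single ribosomes were taken from a sucrose gradient. The annotation also held reporter genes on a plasmid, and reads of all 6 libraries fell on them.

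A ribosome protects the stretch of message it sits on from RNase, so the number of footprints on a coding sequence follows how many ribosomes are on it, while fragmented RNA measures how much message there is. The quotient of both is called translation efficiency. It is set by how often ribosomes start on a message and by how long they stay on it, and elements before the start codon, such as short upstream reading frames or base-paired stretches, are known to lower it. In yeast, the best known cases are GCN4, whose upstream frames hold translation down while amino acids are plentiful, and HAC1, whose unspliced message is kept from translation until the endoplasmic reticulum is under stress.

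The RNA libraries held 1942042, 2007049 and 729461 counts, and the footprint libraries 1204297, 1452268 and 1140019. Protein-coding genes took 95.4% to 97.0% of RNA counts and 99.0% to 99.2% of footprint counts. Small nucleolar RNAs, which are not translated, took 0.596% to 1.29% of RNA counts and 0.0260% to 0.0731% of footprint counts. RNA replicate 2 had the lowest small nucleolar share of the RNA libraries and RNA replicate 3 was the shallowest. Between replicates, the log2 ratio of footprints to RNA correlated across the 5239 genes with a Pearson's r of 0.874 to 0.877, as a description, since genes are not independent replicates. The ratio has no absolute scale: a log2 ratio of 0 is the reference that the scaling sets, not a fixed number of ribosomes. In bulk cultures, fewer cells that express a gene and less message per cell cannot be told apart.

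Footprints spread the genes further apart than RNA did. Density (RPKM, reads scaled to coding length and library size) had an SD across genes on the log2 scale of 1.92, 1.92 and 1.89 for RNA and 2.17, 2.22 and 2.19 for footprints. The footprint SD exceeded the RNA SD in each replicate, by 0.29 ± 0.03 (SD, n = 3), with an exact two-sided sign-flip permutation p of 0.25, the smallest that 3 replicates allow. With a pseudocount of 2 counts the difference was 0.21. The interquartile ranges lay closer, at 2.46, 2.42 and 2.41 for RNA and 2.56, 2.65 and 2.61 for footprints. Genes with few footprint reads can pass the low-count filter through their RNA alone, which bears on the SD. The 100 most-read genes took 31.4% to 35.0% of coding RNA counts and 41.5% to 43.0% of footprint counts. The most-read genes that together held 50% of the counts numbered 294 to 358 in RNA and 163 to 179 in footprints. RNA and footprint densities of one replicate were correlated across genes with r between 0.875 and 0.891.

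**Figure D1:**
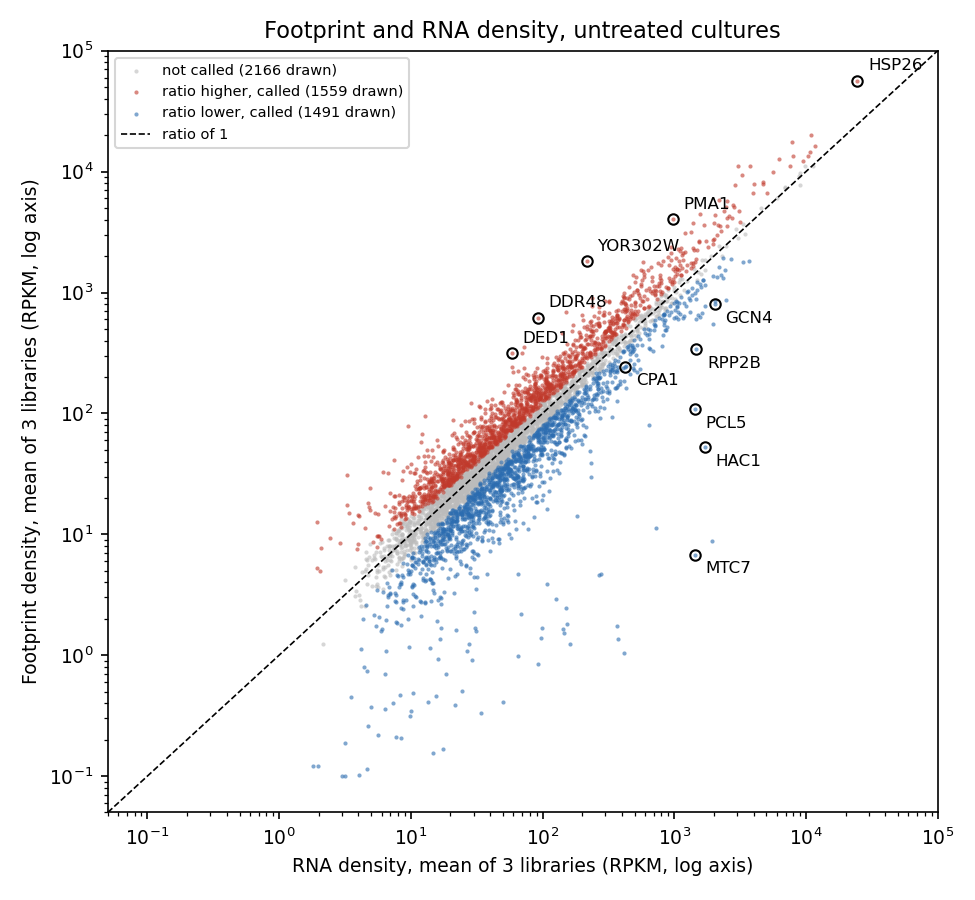
Mean RNA density (x) and mean footprint density (y) of each protein-coding gene tested, in RPKM on log axes, over 3 untreated libraries of each kind. Genes without any footprint read are not drawn, and the dashed line marks a ratio of 1. HSP26 lies at the top of both axes, while HAC1, PCL5 and MTC7 lie far under the line at RNA densities above 1000 RPKM.

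Of the 5239 genes, 3073 (58.7%) had a ratio that differed from the scaling reference at an adjusted p under 0.05 in edgeR's quasi-likelihood test with Benjamini-Hochberg adjustment. The ratio was higher in 1559 genes (29.8%) and lower in 1514 (28.9%). Over all 5239 genes, called or not, the interquartile range of the ratio was log2 -0.50 to 0.44, or 1.92-fold. The range from the 5th to the 95th percentile was log2 -1.56 to 1.10, or 6.33-fold. The median SD of a gene's log2 ratio over the 3 replicates was 0.25. The tail was longer below than above: 361 called genes were beyond 2-fold higher (6.89%) and 603 beyond 2-fold lower (11.5%), 23 and 156 were beyond 4-fold, and 2 and 88 beyond 8-fold. A gene can pass the low-count filter through its RNA alone or its footprints alone. RNA replicates 1 and 2 were also deeper than every footprint library. The part of either in the tails was not tested. DESeq2 with the same design called 1002 genes higher and 862 lower.

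The densest footprints lay on genes of stress defence, the cell wall and glycolysis. HSP26, a small heat shock protein, led all genes, with RNA at 23399, 28670 and 21820 RPKM and footprints at 57987, 58652 and 53239 RPKM in replicates 1 to 3. Its footprint and RNA values did not overlap, and its fitted log2 ratio was 1.21 (SE 0.12). TDH1, a glyceraldehyde-3-phosphate dehydrogenase, followed with a mean footprint density of 19950 RPKM and a log2 ratio of 0.88. SED1, a cell wall mannoprotein abundant in stationary cells, stood at 17683 RPKM with a 2.26-fold ratio. CWP2, another mannoprotein of the wall, stood at 16307 RPKM and a log2 ratio of 0.47 that DESeq2 did not call (adjusted p = 0.129). The other genes of the top 10 were AHP1, a peroxiredoxin, DDR2, a stress gene, FIT3, a wall mannoprotein that helps to retain iron, ENO1, an enolase, PDC1, pyruvate decarboxylase, and TDH3, the main glyceraldehyde-3-phosphate dehydrogenase. TDH3 had as much RNA as TDH1, at 11317 and 10987 RPKM, but a log2 ratio of -0.01 (SE 0.11, edgeR adjusted p = 0.968). TDH1 and TDH3 are paralogs, and reads that fit several genes of the family may be lost or misplaced, so these values are uncertain.

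Among genes with a mean of at least 30 CPM (counts scaled to library size) over the 6 libraries, the highest ratio belonged to a reading frame that is itself a regulator of translation. That mean joins RNA and footprints, so a gene can reach it through the side where it is high. Below 30 CPM, GPI19, of glycolipid anchor synthesis, was higher at log2 3.40 (SE 0.52). It had 3, 1 and 2 RNA reads and 18, 13 and 12 footprint reads. Its RNA reads were at or under the floor of 3 counts per library, so it passed the low-count filter through its footprints alone. Its ratio is therefore uncertain, and it was named after its values were seen. YOR302W, 78 bases on chromosome XV (882765 to 882842, plus strand, build sacCer3), encodes the arginine attenuator peptide in the leader of CPA1, a subunit of carbamoyl phosphate synthetase in arginine synthesis. RNA on YOR302W stood at 214, 185 and 254 RPKM and footprints at 1347, 1768 and 2309 RPKM. The fitted log2 ratio was 3.01 (SE 0.18, edgeR adjusted p = 3.9e-59), an 8.07-fold excess. CPA1 itself starts 56 bases further on and showed the opposite: RNA stood at 394, 398 and 486 RPKM and footprints at 214, 240 and 278 RPKM. The CPA1 log2 ratio was -0.81 (SE 0.12), lower in 3 of 3 replicates. The upstream frame is very short and rests on 85 RNA reads and 469 footprint reads in all.

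Among genes known for upstream frames, GCN4, the activator of amino acid synthesis, combined high RNA with few footprints. Its RNA stood at 2021, 2041 and 2018 RPKM and its footprints at 646, 854 and 906 RPKM, without overlap. The fitted log2 ratio was -1.35 (SE 0.11, edgeR adjusted p = 9.4e-31). Of the 16 genes listed with reported upstream frames, 4 were lower (GCN4, CPA1, HOL1 and SCO1), 6 were higher and 6 were not called, with a median of -0.10 beside -0.01 for all genes. HOL1, a transporter of the plasma membrane, had the lowest log2 ratio of the list, -1.68. TIF4631, which encodes the scaffold protein eIF4G, had the highest, 1.45. YAP1, an activator of the oxidative stress response, had 0.74, and INO2, an activator of phospholipid synthesis, had 0.97, a call that was lost with DESeq2 (adjusted p = 0.0991) and without replicate 2 (0.0850). CLN3, a G1 cyclin, was not called (log2 -0.15, edgeR adjusted p = 0.382).

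HAC1, the transcription factor of the unfolded protein response, had one of the 12 lowest ratios among genes with at least 30 CPM. RNA stood at 2211, 1275 and 1672 RPKM and footprints at 54.5, 51.2 and 52.2 RPKM. The footprints were steady over the 3 replicates while RNA varied more, and the sets did not overlap. The fitted log2 ratio was -5.00 (SE 0.15), or 31.9-fold lower. HAC1 has 2 exons on chromosome VI (75179 to 76147, plus strand), overlaps YFL032W on the same strand and YFL031C-A on the other, and reads that fall in an overlap may be lost. PCL5, a cyclin of the Pho85 kinase that promotes the breakdown of Gcn4, was also far below the reference. Its RNA stood at 1597, 1383 and 1351 RPKM and its footprints at 86.2, 87.8 and 152.6 RPKM, giving log2 -3.76 (SE 0.14).

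**Figure D2:**
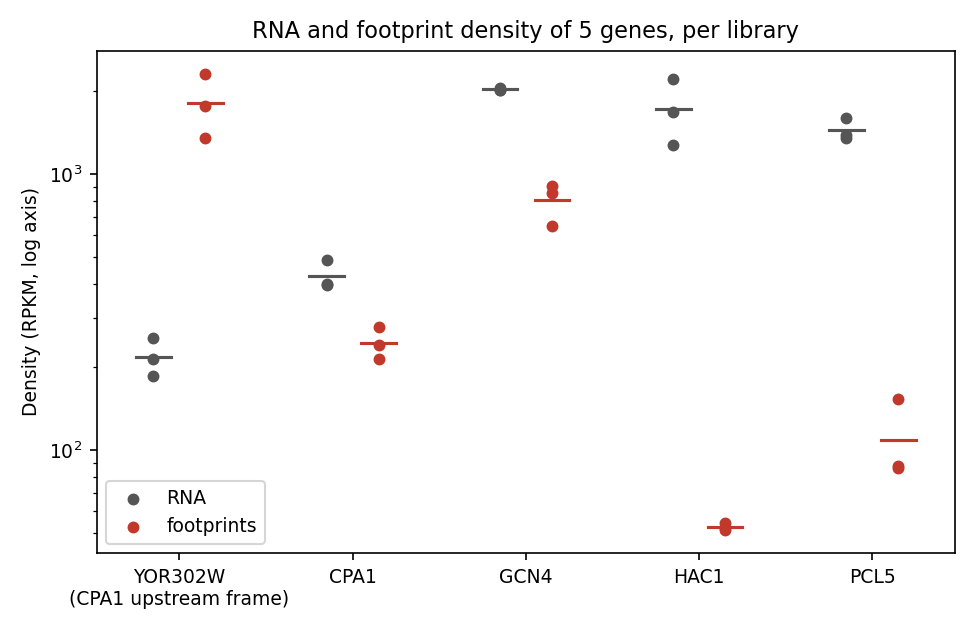
RNA (grey) and footprint (red) density of YOR302W, CPA1, GCN4, HAC1 and PCL5 in RPKM on a log axis. Each point is a library and each bar the mean of 3. Footprints lie above RNA on YOR302W and below it on the other 4 genes.

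The other 10 of the 12 lowest ratios among genes with at least 30 CPM had few or almost no footprints. They reached 30 CPM through their RNA, since the mean covers both kinds of library. ADY3, a meiotic spindle pole component, had RNA at 94.3, 75.3 and 83.8 CPM and no footprint read in any library, so footprints were at least 31.4-fold lower than RNA when 3 reads in each library are taken as the floor. RRT1 had 744 RNA reads and 1 footprint read, a ratio of RNA to footprints of 476 with a 95% counting interval of 85.2 to 18829. YMR175W-A had 408 and 1 reads, a ratio of 261 with an interval of 46.6 to 10337. YMR103C had 710 and 2 reads, a ratio of 227 with an interval of 62.7 to 1879. These ratios are scaled for library size, and the intervals cover counting error only. MTC7 had 3389 RNA reads and 9 footprint reads, YCR024C-B 2891 and 8, YLL053C 1736 and 17, and AAD10, a putative aryl-alcohol dehydrogenase, 1226 and 14. GRX4, a glutaredoxin of iron sensing, had 475 and 7 reads, and ECM32, a helicase linked to translation termination, had 1123 and 53.

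Several of these low genes lay just downstream of an abundant message on the same strand. MTC7 starts 29 bases after HYP2, the translation factor eIF5A, whose RNA density was 3077 RPKM. RRT1 starts 54 bases after MOH1 (506 RPKM), YMR175W-A starts 58 bases after SIP18 (2277 RPKM), and YCR024C-B starts 79 bases after PMP1, a regulator of the plasma membrane proton pump (1387 RPKM). YMR103C and ADY3 lie 155 and 209 bases after YPK2 and GUD1, whose RNA densities were 63.0 and 24.6 RPKM. YLL053C overlaps AQY2, an aquaporin gene. Of the 156 genes beyond 4-fold lower, 46 (29.5%) had a same-strand neighbour ending within 300 bases upstream, compared with 17.5% of all genes tested. Among the 447 genes 2- to 4-fold lower, 84 (18.8%) had such a neighbour. Of the 156, 14 (8.97%) overlapped another identifier on the same strand, compared with 2.02% of all genes and 4.71% of those beyond 2-fold higher. No symbol was given for 28.8% of the 156, compared with 6.11%. Whether RNA reads of these genes came from the neighbour's transcript was not tested. Over all protein-coding genes, 33 had at least 30 RNA reads and no footprint, and none had the reverse. They included MAL31, a maltose permease (201 RNA reads), DAN4, an anaerobic wall protein (137), and the flocculation genes FLO11 (51) and FLO1 (44). RNA replicates 1 and 2 were deeper than every footprint library, which bears on the absence of the reverse.

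**Figure D3:**
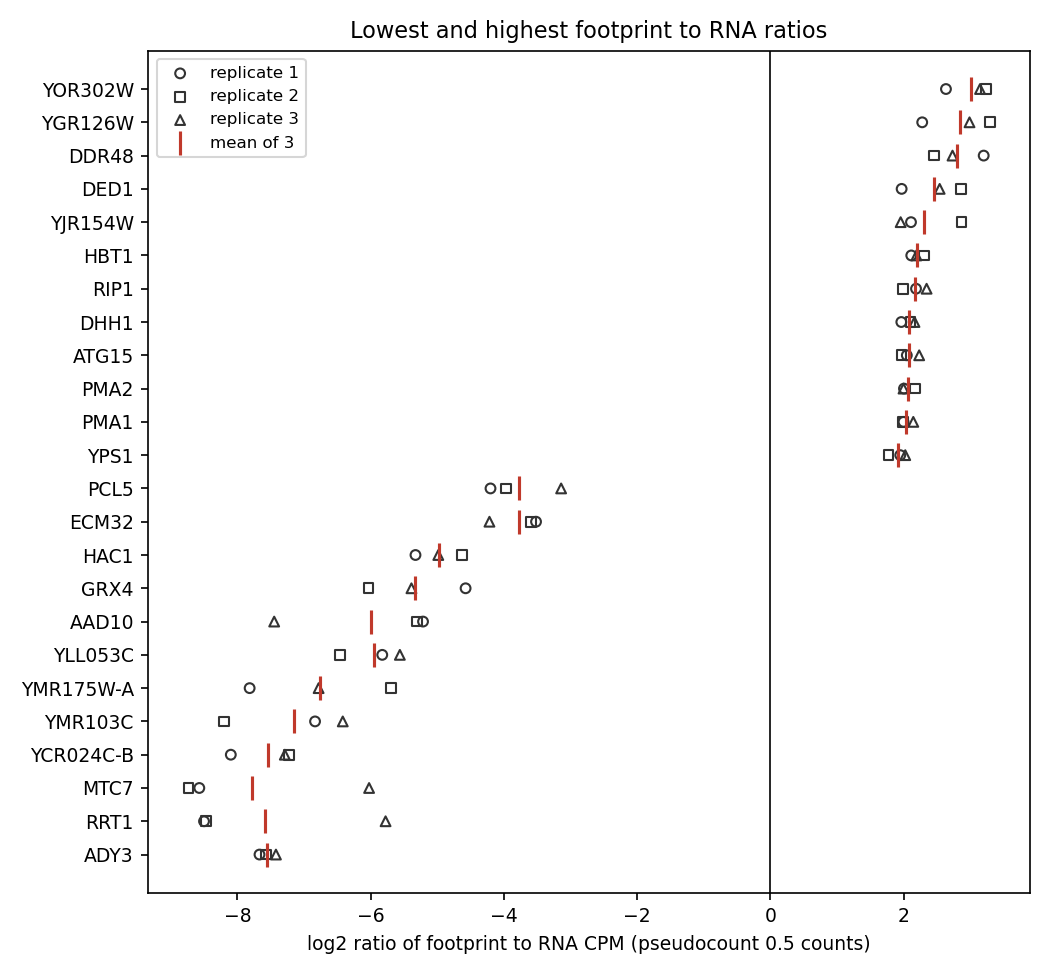
log2 ratio of footprint to RNA CPM of the 12 genes with the lowest and the 12 with the highest fitted ratios among called genes with a mean of at least 30 CPM, in each of 3 replicates (open symbols) with their mean (red bar). The rule took only genes with all 3 ratios on one side of 0, so the side of each point was set by the choice. The low genes with few footprint reads, such as RRT1 and MTC7, scatter most.

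At the high end, 12 genes were named by the same rule. After YOR302W came YGR126W, of unknown function, at log2 2.84 (SE 0.23). DDR48, a DNA damage and stress gene, had RNA at 78.5, 152 and 126 CPM and footprints at 725, 836 and 841 CPM, a log2 ratio of 2.79 (SE 0.13). DED1, a helicase of translation initiation, had RNA at 135, 77.1 and 105 CPM and footprints at 531, 564 and 613 CPM, a log2 ratio of 2.44 (SE 0.13). Both genes were chosen for their high ratios, so the separation of their footprint and RNA values was largely set by the choice. DDR48 shares its strand with YMR173W-A and DED1 with YOR203W over part of their length, so their counts are uncertain. YJR154W, of unknown function, had 2.33, HBT1, a protein of the mating projection, 2.21, RIP1, the Rieske iron-sulfur subunit of respiratory complex III, 2.15, and DHH1, a helicase of message decay, 2.07. ATG15, a vacuolar lipase, had 2.07, and YPS1, a yapsin protease of the cell surface, had 1.91. PMA1, the proton pump of the plasma membrane, had a log2 ratio of 2.04 (SE 0.12), with RNA at 2716, 2771 and 2636 CPM and footprints at 10860.0, 10984 and 11676 CPM. Its paralog PMA2 had 2.06 at a level far lower, and since the sequences are close, the PMA2 counts may hold reads of PMA1.

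Lists of genes with a shared function differed in how many members lay above or below the reference, where 29.8% of all genes were called higher and 28.9% lower. Cell wall proteins stood highest. Of the 32 tested of 36, 26 were higher and 2 lower, with a median log2 ratio of 0.98. HSP150, a secreted wall glycoprotein, led with 1.88, followed by NCA3 with 1.68, while TIR4, a wall mannoprotein of anaerobic cells, had -2.61 on 51 RNA reads and 5 footprint reads. CCW12, a major wall mannoprotein, was not called (log2 0.07, edgeR adjusted p = 0.598). CWP1 was lower at -0.89, with footprints at 2.79, 7.97 and 12.8 CPM, and that call was lost without the replicate term (adjusted p = 0.0594), with DESeq2 (0.243) and without replicate 1 (0.385).

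Genes of energy metabolism were mostly above the reference. Of 43 nuclear genes of the respiratory chain and ATP synthase, 31 were higher and 3 lower (QCR6, COX5B and ATP15), with a median of 0.67. NDI1, the internal NADH dehydrogenase, had 1.57, and ATP14, a subunit of ATP synthase, had 1.39. COX5A and COX5B, alternative forms of one cytochrome oxidase subunit, differed in direction, at 0.94 and -0.74. COX5B is the form known from cells short of oxygen. Of 20 genes of glycolysis and fermentation, 15 were higher and none lower in edgeR's test, with a median of 0.66. HXK1, a hexokinase, had 1.43, PFK2, a phosphofructokinase subunit, had 1.33, and FBA1, the aldolase, was not called at 0.11. Gluconeogenesis and glyoxylate cycle genes had 5 higher and 2 lower of 10. MDH2, cytosolic malate dehydrogenase, had 1.14, and JEN1, a lactate carrier, had -1.10.

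General stress and cytosolic folding genes were mostly above the reference too. Of 42 general stress response genes, 32 were higher and 1 lower (median 0.61), and of 37 cytosolic chaperone genes, 25 were higher and 2 lower (median 0.52). HSP104, the disaggregase, had RNA at 3902, 4972 and 4054 CPM and footprints at 12676, 12312 and 11565 CPM, and a log2 ratio of 1.51 (SE 0.12). MSN4, an activator of the stress response, had 1.79, HSP12, a membrane-stabilising stress protein, had 0.80, and SSA1, a cytosolic Hsp70, had 0.71. The inducible Hsp90 gene HSP82 was higher at 0.51 and its constitutive paralog HSC82 was not called at 0.15 (SE 0.11). That HSP82 and HSC82 differ was not tested. Genes of translocation and folding in the endoplasmic reticulum were split, with 6 higher and 10 lower of 28 and a median of 0.04. KAR2, the Hsp70 of that compartment, had 0.88, and SBH2 and STT3, subunits of a translocon and of the oligosaccharyl transferase, had -1.16 and -1.14.

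The translation apparatus split by component. Aminoacyl-tRNA synthetases were higher in 17 of 21 genes and lower in none by edgeR's test (median 0.49), led by MES1 at 1.41 and CDC60 at 1.26. Initiation factors had 13 higher and 2 lower of 30. DED1, described above, and DBP1, its paralog (1.69), led them, and SUI3, a subunit of eIF2, and FUN12, which encodes eIF5B, were lower at -1.17 and -0.84. Elongation and termination factors had 7 higher and 4 lower of 15. RLI1, a recycling factor, had 1.36 and SUP35, a release factor, 1.33. EFT1 and EFT2, identical copies of elongation factor 2, had -0.48 and -0.44, which is uncertain because reads that fit both copies may be lost. Both calls were lost with DESeq2 (adjusted p = 0.190 and 0.176) and without replicate 1, where EFT1 had -0.24 and EFT2 -0.25, and EFT2 had -0.10 in the per-library count files. Ribosomal protein genes lay below the reference: 3 higher and 50 lower of 81 for the large subunit (median -0.39), and 6 higher and 26 lower of 57 for the small subunit (median -0.25).

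The lowest ribosomal protein genes were RPP2B, of the stalk, at -2.11 and RPL4A at -2.06. RPP2B had RNA at 481, 459 and 534 CPM and footprints at 99.5, 120.4 and 120.1 CPM. RPS31, whose product is made as a fusion with ubiquitin, had -1.85, and RPS12 had -1.27. RPS28B had the highest log2 ratio, 1.22, with replicates at 0.76, 1.21 and 1.75. Many ribosomal proteins are encoded by near-identical pairs, so values of single copies are uncertain. Split by introns, ribosomal protein genes with several exons had a median of -0.33 (90 genes, 50 lower) and those with 1 exon -0.34 (48 genes, 26 lower). Among the other genes, 162 with several exons had a median of -0.19 (34 higher, 67 lower) and 4939 with 1 exon had 0.01. Mitochondrial ribosomal proteins had 10 higher and 16 lower of 67, and ribosome biogenesis genes 15 higher and 10 lower of 60.

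Further lists leaned to different degrees above or below the reference. Histones had 6 higher and none lower of 10, mitochondrial protein import 7 and 2 of 28, and cyclins and anaphase regulators 6 and 2 of 22. Mating genes had 7 higher and 6 lower of 21, ergosterol synthesis 11 and 7 of 23, and the vacuolar ATPase 5 and 5 of 15. Of 3 programmed frameshift genes, 1 was lower and none higher. Amino acid biosynthesis had 36 higher and 11 lower of 60, with MET6, methionine synthase, at 1.46 and LEU1, of leucine synthesis, at 1.17. The lowest of that list were TRP1 at -1.63 and HIS3 at -1.32. Proteasome subunits had 18 higher and 2 lower of 33, in a narrow range from -0.43 to 0.83. DNA replication and repair genes had 21 higher and 3 lower of 46, with RNR1, the large subunit of ribonucleotide reductase, at 1.30. The lowest there were CDC45 at -0.63, not called, and RFC3 at -0.61, a call lost with DESeq2 (adjusted p = 0.0675). Transcription factors had 37 higher and 18 lower of 89, from GZF3 at -5.70, a repressor of nitrogen genes with 178 RNA reads and 2 footprint reads, to MSN4. GZF3 passed the low-count filter through its RNA alone, so its ratio is uncertain. Its ratio of RNA to footprints was 56.9, with a 95% counting interval of 15.5 to 474. Protein kinases had 29 higher and 11 lower of 75. Plasma membrane transporters had 9 higher and 16 lower of 43, from HXT7, a glucose transporter nearly identical to HXT6, at -2.29 to PMA1. Messages carried to the bud had 10 higher and 2 lower of 15, with ASH1, the repressor of mating-type switching, at 0.64. The 2 lower were WSC2 at -1.56 and ERG2 at -1.24. Meiosis and spore wall genes had 1 higher and 6 lower of the 12 tested of 24, with a median of -0.92. GAS2, of spore wall assembly, and RED1, of the meiotic chromosome axis, had 53 and 62 RNA reads and 2 and 3 footprint reads. Both passed the low-count filter through their RNA alone, which bears on the median of this list. The ratio of RNA to footprints was 17.0 for GAS2, with a 95% counting interval of 4.47 to 144, and 13.2 for RED1, with an interval of 4.32 to 65.9. SPS100, of the spore wall, had a log2 ratio of 1.28. All 30 lists were chosen with results of these data known, so their counts are a description.

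**Figure D4:**
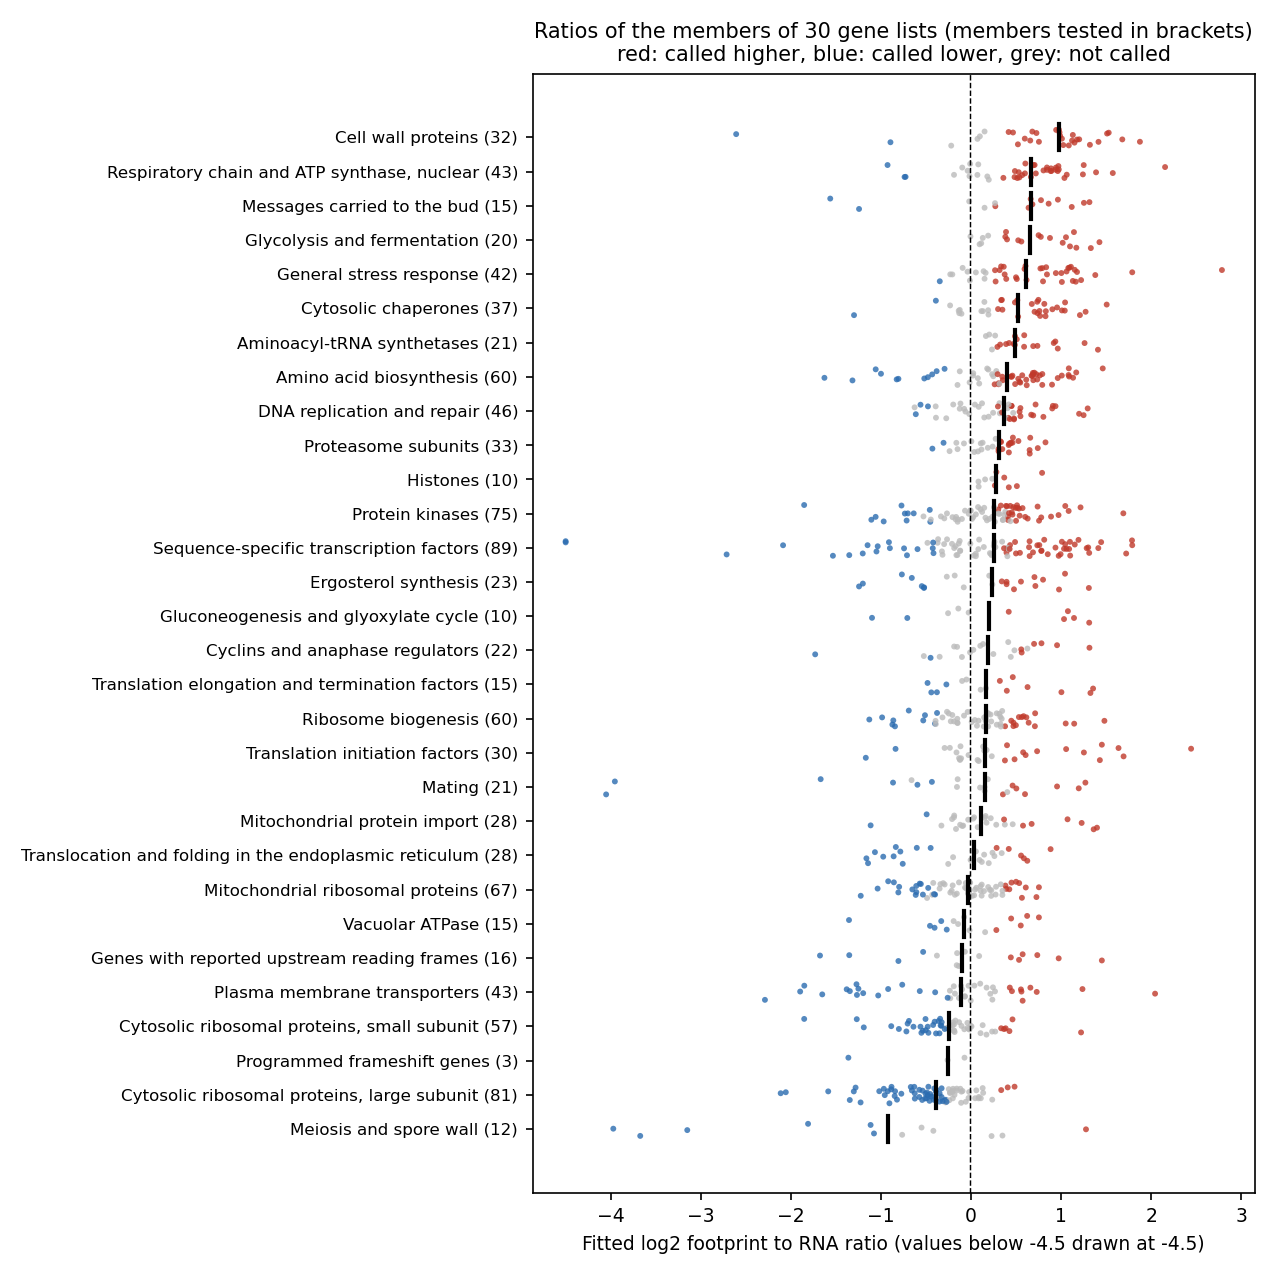
Fitted log2 footprint to RNA ratio of each tested member (points) of 30 gene lists, with the list median as a black bar and the median of all genes as a dashed line. Medians run from -0.92 for meiosis and spore wall genes to 0.98 for cell wall proteins. Only 12 of the 24 meiosis and spore wall genes were tested, and some passed the low-count filter through their RNA alone. The spread within most lists exceeds the distance of its median from the dashed line.

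The ratio was also set against coding length. The median log2 ratio, averaged over replicates, was -0.13 ± 0.25 (SD, n = 3) for the 174 genes under 300 bases, -0.23 ± 0.11 for the 669 genes of 300 to under 600 bases, and -0.09 ± 0.03 for the 1622 genes of 600 to under 1200 bases. It was 0.11 ± 0.05 for the 1936 genes of 1200 to under 2400 bases and 0.16 ± 0.04 for the 838 genes of 2400 bases and over. Genes called higher made up 25.9%, 18.7%, 23.9%, 35.3% and 38.1% of the classes in this order, and genes called lower 39.1%, 39.0%, 33.1%, 24.3% and 21.2%. The shortest class minus the longest was -0.51, 0.04 and -0.41 in replicates 1 to 3, a mean of -0.29 ± 0.29 that did not exceed the spread (exact two-sided sign-flip permutation p = 0.5). The class of 300 to under 600 bases minus the longest was negative in 3 of 3 replicates, -0.39 ± 0.15 (exact p = 0.25, the smallest possible). Across genes, Spearman's rho of the ratio with length was 0.17, over 5239 genes of the same libraries.

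Replicate 2 set the spread of the shortest class. Its median there was 0.16, against -0.32 and -0.24 in replicates 1 and 3. Genes under 300 bases took 3.76%, 3.24% and 3.54% of coding RNA counts and 2.86%, 3.55% and 3.26% of footprint counts in replicates 1 to 3. RNA replicate 2, with the lowest of these RNA shares, also had the lowest share of small nucleolar RNA, and the part of either in the result was not tested.

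Length and abundance were themselves related, with a Spearman's rho of -0.54 between length and RNA density across the genes, so length was also read within tertiles of RNA density. In the highest tertile, the median ran from -0.14 ± 0.23 under 300 bases (149 genes) and -0.20 ± 0.14 at 300 to under 600 bases (458 genes) to 0.37 ± 0.09 at 1200 to under 2400 bases (424 genes) and 0.76 ± 0.04 at 2400 bases and over (53 genes). The shortest class minus the longest was -0.89 ± 0.27 there, negative in 3 of 3 replicates (exact p = 0.25), and -0.42 ± 0.44 in the middle tertile. In the lowest tertile that difference was 2.38, but it rests on a single gene under 300 bases. The class of 300 to under 600 bases, with 39 genes, differed there from the longest by -0.02 ± 0.11. A gene with little RNA can pass the filter on low counts through its footprints alone, which bears on the lowest tertile.

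**Figure D5:**
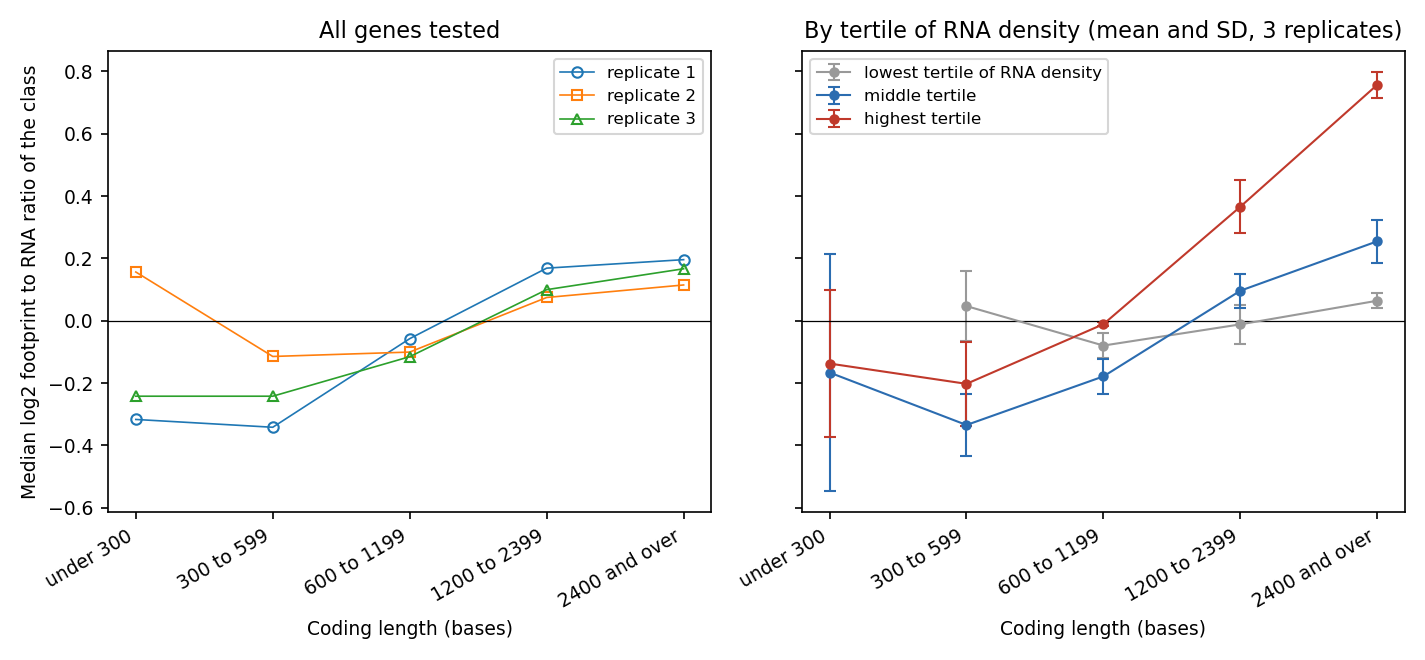
Median log2 footprint to RNA ratio by class of coding length. Left, all genes tested, 1 line per replicate; right, by tertile of RNA density, with points as the mean and bars as the SD of 3 replicates, leaving out the class with a single gene. The replicates part under 300 bases, and the highest tertile of RNA density reaches 0.76 in the longest class.

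Abundance by itself was compared in the same way. Genes were put into quintiles of RNA density, taken for each replicate from the other replicates, so that a ratio was not ranked by its own RNA count. The 4 lower quintiles had medians of -0.02, 0.00, -0.04 and -0.03, and the highest quintile had 0.11 ± 0.05. The highest minus the lowest quintile was 0.05, 0.15 and 0.21 in replicates 1 to 3, a mean of 0.13 ± 0.08 (exact two-sided sign-flip permutation p = 0.25). With no filter on low counts, which a gene with little RNA can pass through its footprints alone, the difference was 0.28 ± 0.08. Ranked by the same replicate, the difference was 0.037 ± 0.10. Within tertiles of coding length it was 0.016 ± 0.14 in the shortest tertile, 0.49 ± 0.06 in the middle tertile and 0.50 ± 0.06 in the longest, so long and abundant messages combined the highest medians. Without the ribosomal protein genes, which are short and abundant and lay below the reference, the highest quintile had 0.16 ± 0.05.

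The same ratios in the cultures pre-treated with radicicol were close to those of the untreated ones. Over 5230 genes in both fits, the fitted log2 ratios correlated across genes with r = 0.943, and 2744 of the 3073 genes called in untreated cultures were called in the same direction after pre-treatment. In edgeR's test of the interaction without a term for each culture, 1 of 5356 identifiers (0.0187%), HAC1, differed at an adjusted p under 0.05, and 441 had an unadjusted p under 0.05. With a term for each culture, 15 differed, HAC1 among them. HAC1 RNA stood at 1585, 914 and 1198.9 CPM untreated and 971, 964 and 988 CPM pre-treated, and its footprints at 39.0, 36.7 and 37.4 CPM untreated and 140.8, 169.5 and 139.7 CPM pre-treated. Its log2 ratio was -5.00 untreated and -2.70 pre-treated, a change of 2.33 (SE 0.26, adjusted p = 0.000587). This call ended without untreated replicate 3 (change 2.35, adjusted p = 0.0891). CPA1 had -0.81 and -0.26, a change of 0.54 that did not pass without the culture term (adjusted p = 0.262) and passed with it (adjusted p = 0.0267), while GCN4 had -1.35 and -1.61.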

How the data were processed

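The values were raw counts of reads per gene identifier, deposited by the authors in a table for the series, beside counts per exon feature for each library. Per the file headers, the per-library counts came from featureCounts 1.6.2 on the forward strand, leaving out reads that fit several features or places. The submitters' processing notes also name the build sacCer3 and the tools STAR 2.7.1a, cutadapt 1.18 and SAMtools 1.9. How the table itself was made is not given in the sources used here. Its totals came to 98.3% to 99.0% of the untreated per-library totals. Symbols and coding status came from a RefSeq gene table, which matched 6048 identifiers. Gene lengths were coding lengths, all multiples of 3 for coding genes.

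Tests used R 4.3.3 with edgeR 4.0.16 (robust quasi-likelihood F test, TMM scaling, filterByExpr at minimum counts of 10 per library and 15 in total, limma 3.58.1), with library type and replicate number as terms. Benjamini-Hochberg adjustment ran over 5403 identifiers. The median of the estimated prior degrees of freedom was infinite, so the spread used was largely pooled across genes. Very small p-values reflect that pooling. CPM used TMM-scaled library sizes, RPKM divided CPM by coding length, and log2 ratios per replicate used a pseudocount of 0.5 counts. Differences of medians were tested by exact sign flips over 3 replicates. The interaction with pre-treatment was fitted over 12 libraries without a culture term. DESeq2 1.42.0, other scalings and filters and leaving out replicates were alternatives. A depth floor of 3 counts per library is 1.49 to 4.11 CPM. Replicates are labelled as separate samples, and the counts of replicate libraries differed beyond sampling noise. The p-values of single genes measure that spread largely as pooled across genes.

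Genes were named by rule. The first were the 12 highest and lowest called ratios with at least 30 CPM and every replicate's ratio on that side. The CPM minimum was a mean over RNA and footprint libraries together. The others were the 2 highest and lowest of each list and, with at least 30 CPM, of each length class. To these came the 10 densest in footprints and a fixed set. Other genes were named as single members of a count or neighbours after their values were seen. Members and lists were chosen with earlier results of these data known. 1 list entry, CYS1, matched no gene.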

Additional observations from a re-analysis of the deposited data

Results flagged for a closer look

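The footprint to RNA ratio of HAC1 differed between untreated and pre-treated cultures by a test of the difference itself, in a fit with no term for each culture. It was the 1 call of that fit, while a fit with such a term made 15. Its log2 ratio changed by 2.33 (SE 0.26, edgeR adjusted p = 0.000587), with all 3 pre-treated ratios above the untreated ones, which were -5.33, -4.62 and -4.98. The smallest change over the alternatives was 2.13, without untreated replicate 1, and the call was lost without untreated replicate 3 (adjusted p = 0.0891).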

How the results depend on the processing

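The number of calls depended on the test. DESeq2 called 1002 genes higher and 862 lower, and a test against a difference of 1.5-fold in edgeR called 536 and 663, while leaving out 1 replicate gave 1220 to 1377 higher and 1268 to 1392 lower. Upper-quartile scaling shifted the median of all genes by -0.09 and gave 1318 and 1718. Replicate numbers did not clearly pair the libraries: same-numbered footprint and RNA libraries deviated together with r of 0.07, 0.03 and 0.17, and 5 of 6 libraries correlated best with their own number. With no replicate block, 1512 genes were higher and 1469 lower. For the interaction, a replicate block with a term for each culture gave 15 calls in place of 1, no filter gave 5, and leaving out 1 replicate gave 0 to 3. The difference between short and long genes was 2.38 in the lowest tertile of RNA density, from 1 short gene, and -0.89 in the highest. The difference between abundant and scarce messages was 0.28 with no filter, 0.037 when ranked in the same replicate, and 0.016, 0.49 and 0.50 within tertiles of length. The difference in SD between footprints and RNA was 0.21 with a pseudocount of 2 counts and 0.33 over all nuclear reading frames. The causes were not tested. Of 164 named genes, 144 were called, and 16 of these lost the call under at least 1 of 9 alternatives, 13 of them with DESeq2. Among the named genes not called, 5 gained a call under some alternative. None of the 164 changed sign. The median of 11 of 30 lists relative to all genes moved beyond its spread, and that of the vacuolar ATPase went from -0.06 to 0.04 without replicate 2. Low-count genes are limited by depth: RNA replicate 3 held 729461 counts.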

Other observations

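Reads on the plasmid reporters fell outside the comparison of genes. The coding part of the His reporter had 21177, 24517 and 9996 RNA counts and 9473, 10702 and 9810 footprint counts, a fitted log2 ratio of -0.27 (SE 0.11). The part labelled as its untranslated region had 2836, 1883 and 593 RNA counts and 2, 11 and 10 footprint counts, a log2 ratio of -7.07 (SE 0.20). The coding part of the LacZ reporter had 232, 142 and 96 RNA counts and 6, 11 and 7 footprint counts, a log2 ratio of -3.66 (SE 0.24), and the part labelled as its untranslated region had 82, 69 and 32 RNA counts and 28, 26 and 20 footprint counts, a log2 ratio of -0.66 (SE 0.23).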
